A study of Mus musculus with 6 samples.

Results

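Protocadherins are cadherin-like adhesion proteins of the cell surface, and the data described here are their transcript levels in cultured mouse neural stem cells (NSCs) with and without a mutated Tsc2. Members were taken as every gene of the deposited table whose symbol starts with Pcdh, which gave 70 of 24972 gene names. Of these, 58 belong to the 3 gene clusters (14 alpha, 22 beta and 22 gamma genes) and 12 are non-clustered (4 delta-1, 5 delta-2 and 3 others). A mean of at least 10 normalised counts over the 6 libraries was needed for testing, and 63 members passed: 9 alpha, 21 beta, 22 gamma and 11 non-clustered genes. The other 7 members, Pcdha1, Pcdha3, Pcdha5, Pcdha6, Pcdha8, Pcdhb1 and Pcdh12, never exceeded 26.5 normalised counts in any library.

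Poly(A) RNA was sequenced from 3 Tsc2 wt/wt and 3 Tsc2 mut/mut cultures of the ventricular-subventricular zone (V-SVZ), the germinal niche beside the lateral ventricle. Per the methods of the study, pups of both genotypes carried a tamoxifen-inducible Cre driven by Nestin regulatory sequence (Nes-cre/ERT2) and a Cre-dependent tdTomato reporter, and both received tamoxifen. The mut/mut pups also carried the conditional Tsc2 allele tm1.1Mjg, so Cre acts on Tsc2 in cells that have used the Nestin driver. Cells from these neonatal brains were grown as adherent cultures with EGF and FGF for at most 3 passages, and nothing in the labels says whether replicates of a group came from separate litters. Tsc2 encodes tuberin, which together with hamartin (Tsc1) holds back the growth kinase complex mTORC1.

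Clustered protocadherins sit in 3 neighbouring arrays, in which each variable exon has its own promoter and a neuron switches on a small and largely random set of them. The alpha and gamma variable exons are spliced to constant exons shared by the whole array, whereas each beta gene is a single exon. The products bind the same isoforms on a facing membrane and give neurons a cell surface identity used in dendrite self-avoidance, while the C-type members at the end of the alpha and gamma arrays are expressed more evenly across cells. Non-clustered protocadherins of the delta-1 and delta-2 groups are separate genes that mark subsets of brain cells and act in cell sorting, axon growth and synapse formation.

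The 6 libraries differed broadly between genotypes, so counts of protocadherins are read against all genes. Normalised totals were 28993000 to 30356000 in wt/wt and 45048000 to 55746000 in mut/mut, and 1 read was worth roughly 0.549 to 2.36 normalised counts. Of 13964 genes tested with limma, 36.8% were higher and 38.7% were lower in mut/mut at an adjusted p under 0.05, and for 80.6% the 3 values of one group lay wholly above or below those of the other. The median log2 fold change of all genes was -0.07. Tsc2 itself stood at 3231, 2934 and 2794 normalised counts in wt/wt and at 4766, 5645 and 8210 under the mut/mut label. It was therefore higher, not lower, there (log2 fold change 1.02 ± 0.20, SE, limma adjusted p = 0.00101), but it was not called with column totals set equal (0.31, limma adjusted p = 0.0812). Counts over all exons of Tsc2 do not measure loss of its floxed exons alone, so this neither checks nor contradicts the label. Tsc1 fell by 1.04 ± 0.17 on the log2 scale (limma adjusted p = 2.17e-04). All 10 NSC markers listed, among them Nes, Sox2, Vim and Fabp7, were measured, with a summed level of 227670 to 257050 normalised counts in wt/wt and 199390 to 231850 in the libraries labelled mut/mut. Of the 10, 5 were lower, among them Fabp7 (-2.43) and Sox2 (-1.28), and 2 were higher, Hes5 (2.23) and Vim (0.66). Vim was not called with equal totals (-0.06) and was called lower with a trend on GC content and length removed (-0.45).

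Protocadherin genes were mostly lower in the libraries labelled mut/mut, but the counts differed among the groups of the family. Of the 52 clustered genes tested, 27 fell, 3 rose and 22 were not called, with a median log2 fold change of -0.87. Of the 11 non-clustered genes tested, 8 fell, 2 rose and 1 was not called, with a median of -2.20. Within the clusters, 18 of 21 beta genes and 7 of 9 alpha genes fell and none of either rose, whereas 17 of 22 gamma genes were not called, 3 rose and 2 fell. Against the 38.7% of all genes that fell, the share was 51.9% in the clustered set and 72.7% in the non-clustered one. With column totals set equal, 86.5% of clustered genes were lower, beside 54.5% of all genes. Their share was below that of all genes with a minimum mean of 100 (28.6% beside 36.6%). It was also below with a GC and length trend removed (35.3% beside 40.2%). The groups did not overlap for 35 of 52 clustered genes (67.3%) and 10 of 11 non-clustered ones (90.9%), beside 80.6% of all genes. Fewer cells of a type and less RNA per cell cannot be told apart in bulk RNA.

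**Figure D1:**
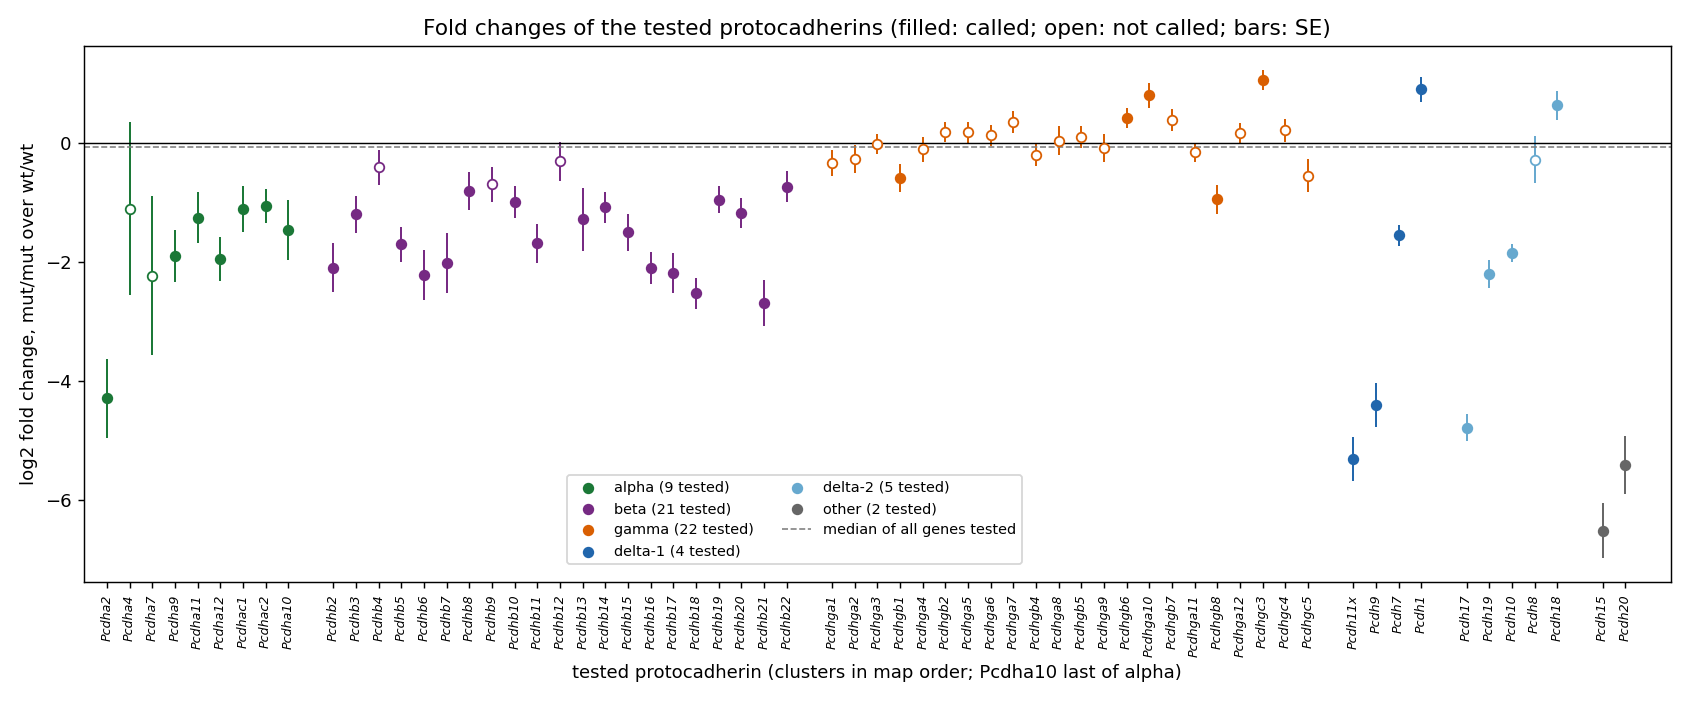
Log2 fold change of each of the 63 tested protocadherins (mut/mut over wt/wt, log2(value + 1) scale) with its standard error, by group. Filled points passed the limma test and open points did not. Beta genes lie between -2.68 and -0.30, gamma genes between -0.94 and 1.06, and 5 non-clustered genes lie below -4. The Pcdha2 point is a fitted value against libraries listed at 0 and gives no size.

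The gamma cluster held most of the protocadherin RNA and was the part least often called. It lies on chromosome 18 from 37661793 to 37841873 (mm10, GENCODE annotation), and each of its 22 transcripts has 4 exons, of which 3 are shared by all of them. Those shared exons make up 41.7% to 45.9% of a transcript, so the split of reads among gamma genes rests on the counting and is uncertain for each gene. The summed level of the 22 genes was 44122, 48619 and 46581 normalised counts in wt/wt and 73393, 78382 and 101539 in mut/mut. The log2 ratio of the group means was 0.86, but only 0.14 after division by the normalised total of each library. Without Pcdhgc3 the other 21 genes together stood at 12688, 12443 and 13083 in wt/wt and at 11820, 12927 and 15038 in mut/mut, with a log2 ratio of 0.06, or -0.66 after that division.

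Pcdhgc3, a C-type gamma gene whose product promotes dendrite branching in mouse cortical neurons and can inhibit Wnt signalling through Axin1, was the dominant protocadherin. It stood at 31435, 36177 and 33498 normalised counts in wt/wt and at 61573, 65455 and 86501 in mut/mut. The groups did not overlap and mut/mut replicate 3 was the highest. The log2 fold change was 1.06 ± 0.17 (SE, limma adjusted p = 1.94e-04), a 2.09-fold higher level, and the exact two-sided permutation p of 0.1 is the smallest that 3 against 3 values can give. The log2 fold change was 0.35 with column totals set equal and 0.61 with a trend on GC content and length removed, and the rise was called in both. Among all genes of a library Pcdhgc3 ranked 55th to 75th in wt/wt and 72nd to 84th in mut/mut. Its share of all protocadherin counts was 50.1%, 53.4% and 51.6% in wt/wt and 77.0%, 77.8% and 80.5% in mut/mut. Its share of gamma counts was 71.2% to 74.4% in wt/wt and 83.5% to 85.2% in mut/mut.

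**Figure D2:**
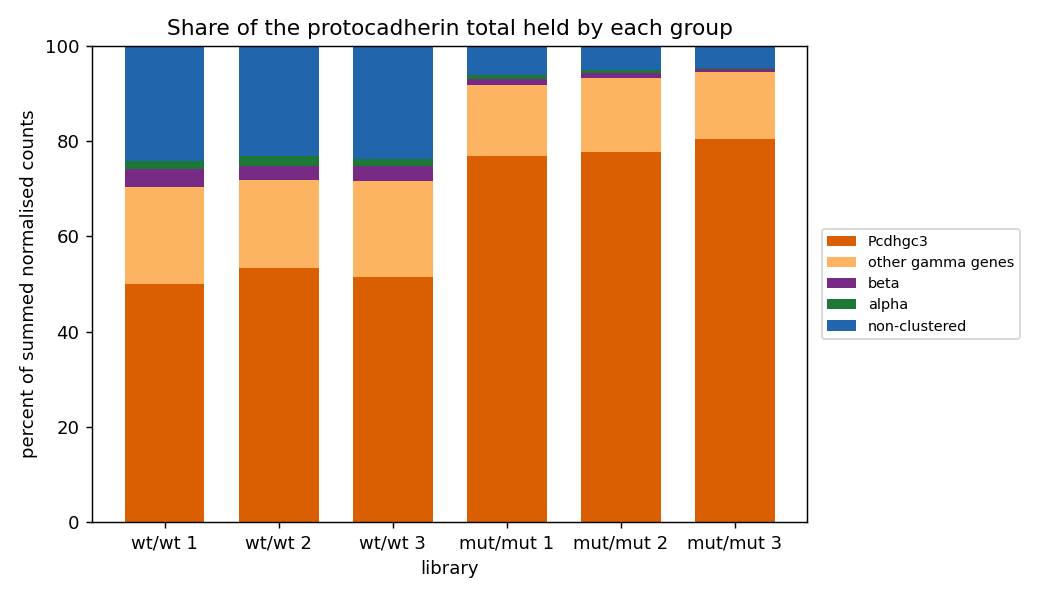
Share of the summed normalised counts of all 70 protocadherins held by Pcdhgc3, the other gamma genes, the beta genes, the alpha genes and the non-clustered genes, 1 stacked bar per library. Pcdhgc3 holds 50.1% to 53.4% in wt/wt and 77.0% to 80.5% in the libraries labelled mut/mut, and the non-clustered genes hold 23.1% to 24.1% and 4.57% to 6.21%.

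The other C-type gamma genes were not called. Pcdhgc4, which in mice is needed for the survival of cortical interneurons, stood at 974, 995 and 1029 normalised counts in wt/wt and at 911, 1228 and 1415 in mut/mut (log2 fold change 0.22 ± 0.19, limma adjusted p = 0.308). Pcdhgc5 stood at 912, 1393 and 1701 in wt/wt and at 669, 850 and 1224 in mut/mut (-0.54 ± 0.27, limma adjusted p = 0.0941). Both sets of values overlapped between groups, and the Pcdhgc5 values spread most within wt/wt. Without mut/mut replicate 3 or without wt/wt replicate 1, Pcdhgc5 was called lower (limma adjusted p = 0.02 and 0.0294).

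Among the 12 A-type and 7 B-type gamma genes, 15 were not called. Pcdhga10 rose from 305, 297 and 318 to 484, 458 and 701 normalised counts (0.81 ± 0.21, limma adjusted p = 0.00527). Pcdhgb6 rose from 905, 895 and 1133 to 1288, 1256 and 1371 (0.42 ± 0.17, limma adjusted p = 0.0385). Both rises were free of overlap between groups. Pcdhgb8 fell from 128, 119 and 111 to 71.7, 50.6 and 64.3 (-0.94 ± 0.24, limma adjusted p = 0.00499), and Pcdhgb1 fell from 492, 450 and 507 to 225, 384 and 383 (-0.58 ± 0.24, limma adjusted p = 0.0448). The 11 A-type genes that were not called lay between -0.33 (Pcdhga1) and 0.36 (Pcdhga7), and the 4 such B-type genes between -0.20 (Pcdhgb4) and 0.40 (Pcdhgb7). The calls of Pcdhgb6 and Pcdhgb1 were each lost in 4 of the 6 fits that left out a library (adjusted p up to 0.154 and 0.148). As a whole the 22 gamma genes did not overlap between groups in 40.9% of cases, beside 80.6% of all genes, and their median log2 fold change was 0.08.

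The beta genes were lower in 18 of 21 cases. The cluster spans 37264938 to 37524479 on the same chromosome, with 22 single-exon genes that share no constant exon, and only Pcdhb21 and Pcdhb22 overlap each other, by 455 bases. Beta proteins therefore lack the cytoplasmic part common to alpha or gamma proteins. The summed level of the cluster was 2379, 2097 and 1965 normalised counts in wt/wt and 982, 891 and 690 in mut/mut. Per kilobase of transcript, the median tested beta gene stood at 17.6 in wt/wt and 6.97 in mut/mut, while the median gamma gene stood at 113 and 132. All 21 tested genes had a negative fold change, from -2.68 to -0.30 with a median of -1.28. In 19 of them (90.5%) every mut/mut value lay below every wt/wt value. Groups were apart in either direction for 80.6% of all genes.

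Pcdhb21 showed the largest beta fall, from 65.8, 53.9 and 47.0 to 7.45, 12.1 and 5.04 normalised counts (-2.68 ± 0.39, limma adjusted p = 1.15e-04). Pcdhb18 fell from 192, 194 and 138 to 34.8, 28.3 and 25.2 (-2.52 ± 0.27, limma adjusted p = 1.38e-05). The 3 beta genes with the highest mean were Pcdhb17, Pcdhb19 and Pcdhb20. Pcdhb17 fell from 272, 228 and 229 to 80.3, 60.2 and 29.9 (-2.18 ± 0.34, limma adjusted p = 1.83e-04). Pcdhb20 fell from 242, 202 and 196 to 116, 104 and 67.7 (-1.17 ± 0.26, limma adjusted p = 0.00183). Pcdhb19 fell from 269, 220 and 224 to 122, 148 and 101 (-0.95 ± 0.23, limma adjusted p = 0.00315). In these 5 genes the lowest wt/wt value exceeded the highest mut/mut value. Of the other 13 called beta genes, Pcdhb6 (-2.22), Pcdhb16 (-2.09), Pcdhb2 (-2.09) and Pcdhb7 (-2.01) showed the largest falls, and the remaining 9 had log2 fold changes from -1.70 (Pcdhb5) to -0.73 (Pcdhb22). The genes not called were Pcdhb12, Pcdhb4 and Pcdhb9, and Pcdhb9 missed the threshold at a limma adjusted p of 0.052. Pcdhb8, Pcdhb13 and Pcdhb22 lost their calls in at least 3 of the 6 fits without a library.

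The alpha cluster had the lowest summed level of the 3 arrays. It lies from 36930184 to 37187661 on the same chromosome, and its transcripts share 3 constant exons that make up 48.6% to 54.9% of their length, so single alpha values carry the same uncertainty as the gamma ones. The summed level of the 14 genes was 1153, 1371 and 1014 normalised counts in wt/wt and 662, 523 and 331 in mut/mut. Most of this was Pcdhac2, a C-type gene that in mice is required for the even spread of serotonergic axons, at 683, 989 and 838 in wt/wt and 563, 441 and 254 in mut/mut (-1.05 ± 0.29, limma adjusted p = 0.00648). It made up 59.2% to 82.6% of alpha counts in wt/wt and 76.6% to 85.0% in mut/mut. Pcdhac1, the other C-type member, fell from 39.6, 35.5 and 25.0 to 21.1, 10.1 and 14.9 (-1.10 ± 0.38, limma adjusted p = 0.0228), and this call was lost in 3 of 6 fits without a library (adjusted p up to 0.0792).

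The numbered alpha genes had low levels. Pcdha12 fell from 94.5, 97.7 and 62.6 to 29.7, 24.1 and 12.5 normalised counts (-1.95 ± 0.37, limma adjusted p = 7.17e-04), and Pcdha9 fell from 68.7, 83.9 and 43.2 to 19.8, 8.35 and 25.0 (-1.90 ± 0.44, limma adjusted p = 0.00248). Both kept the groups apart. Pcdha2 was listed at 36.0, 24.4 and 6.99 in wt/wt and at 0 in all mut/mut libraries, so no fold is given. It reached the minimum mean only through its wt/wt values, so its fall adds nothing to the alpha count. Without it 6 of 8 tested alpha genes were lower, and the alpha median was -1.35 in place of -1.46. Pcdha4 was listed at 55.5 in wt/wt replicate 1 and at 0 in the other two, and at 0, 4.74 and 0 in mut/mut. Pcdha7 was listed at 31.5, 29.0 and 0 in wt/wt and at 0, 8.54 and 0 in mut/mut. For both genes the groups overlapped and neither was called.

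The non-clustered genes had the lowest group medians. Their summed level was 15119, 15669 and 15373 normalised counts in wt/wt and 4965, 4319 and 4916 in mut/mut, and their share of all protocadherin counts went from between 23.1% and 24.1% to between 4.57% and 6.21%. The spread of both sums within a group was small beside the gap. Per kilobase of transcript, Pcdh10 was the most abundant of them in wt/wt at 717, and Pcdh1 the most abundant in mut/mut at 269.

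**Figure D3:**
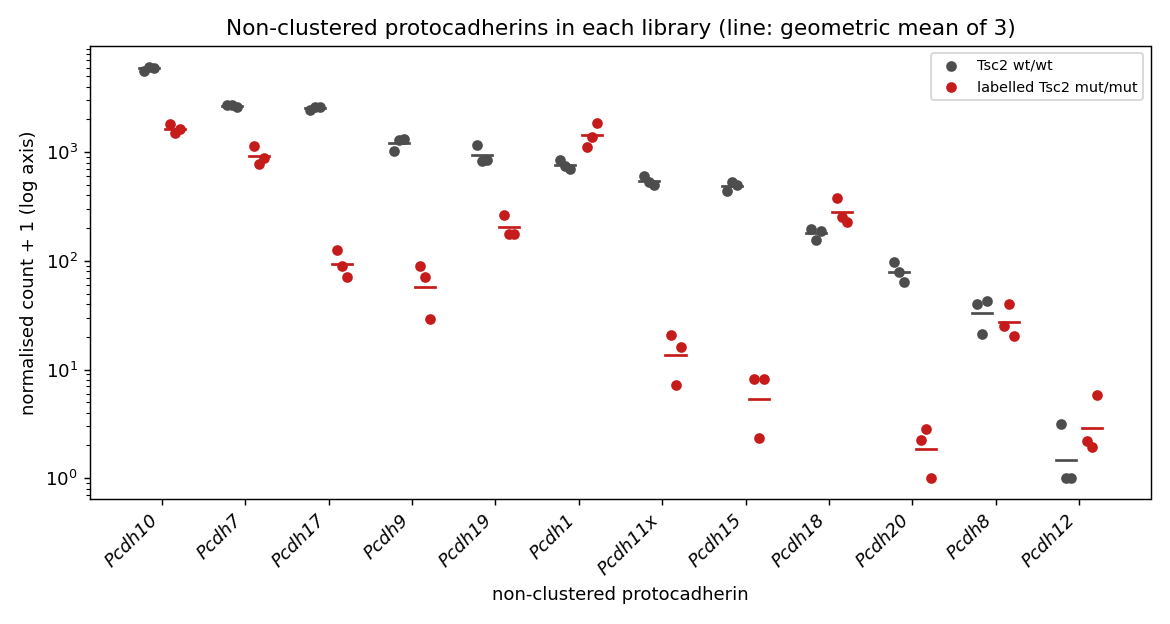
Normalised count plus 1 of the 12 non-clustered protocadherins in each library, on a log axis, ordered by wt/wt mean. Each point is a library and each line the geometric mean of 3. Points of the 2 genotypes separate for 10 of the 11 tested genes, with mut/mut above wt/wt only for Pcdh1 and Pcdh18 among these, and overlap for Pcdh8 and the untested Pcdh12.

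In the delta-2 group, Pcdh10, Pcdh17 and Pcdh19 fell, Pcdh18 rose and Pcdh8 was not called. Pcdh10, which in mice is needed for axon growth from the striatum and acts on actin through the WAVE complex, stood at 5558, 6143 and 6015 normalised counts in wt/wt and 1802, 1513 and 1620 in mut/mut. This is 3.59-fold lower (-1.85 ± 0.15, limma adjusted p = 3.07e-06), but the fall was not called with the GC and length trend removed (0.22, limma adjusted p = 0.269). Its rank among all genes of a library was 857 to 1077 in wt/wt and 4351 to 4776 in mut/mut. Pcdh17, which recruits the same complex to contacts between growing amygdala axons in mice, stood at 2442, 2597 and 2606 in wt/wt and 124, 89.1 and 69.7 in mut/mut. That is 27.5-fold lower (-4.78 ± 0.23, limma adjusted p = 2.07e-07). Pcdh19, an X-linked gene whose variants cause an epilepsy seen mainly in girls and whose protein pairs with N-cadherin, stood at 1165, 829 and 841 in wt/wt and 266, 176 and 177 in mut/mut (-2.20 ± 0.23, limma adjusted p = 1.44e-05).

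Pcdh18, whose product binds the reelin adaptor Dab1 in mice, went the other way, from 196, 154 and 189 normalised counts to 382, 253 and 227 (0.64 ± 0.24, limma adjusted p = 0.0341). The groups did not overlap, but the call was lost in 4 of the 6 fits without a library (adjusted p up to 0.132). Pcdh8, also called arcadlin and induced by synaptic activity in rat neurons, was at 39.4, 20.3 and 41.8 in wt/wt and 24.4, 39.2 and 19.5 in mut/mut, with overlapping groups (-0.27 ± 0.40, limma adjusted p = 0.55).

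In the delta-1 group, Pcdh7, Pcdh9 and Pcdh11x fell and Pcdh1 rose. Pcdh11x, an X-linked gene of the brain whose cytoplasmic part can bind beta-catenin, stood at 604, 525 and 493 normalised counts in wt/wt and 20.0, 6.28 and 15.3 in mut/mut (39.9-fold lower, -5.32 ± 0.37, limma adjusted p = 1.32e-06). Pcdh9, found at neuronal contacts, stood at 1027, 1300 and 1317 in wt/wt and 89.3, 69.4 and 27.97 in mut/mut (21.2-fold lower, -4.41 ± 0.37, limma adjusted p = 3.76e-06). Both genes were low in each mut/mut library. Pcdh7, also known as NF-protocadherin, stood at 2697, 2745 and 2612 in wt/wt and 1128, 782 and 881 in mut/mut (-1.54 ± 0.17, limma adjusted p = 2.16e-05). Pcdh1, an adhesion protein of airway epithelium, stood at 850, 742 and 695 in wt/wt and 1120.4, 1388 and 1867 in mut/mut (0.91 ± 0.21, limma adjusted p = 0.00245).

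The remaining non-clustered genes were almost undetected in mut/mut. Pcdh15, which joins Cdh23 in the tip links of inner ear hair cells and is mutated in Usher syndrome, stood at 442, 536 and 500.0 normalised counts in wt/wt and 7.19, 1.32 and 7.16 in mut/mut. Its fold change was the largest in size of the 63 tested (-6.52 ± 0.46, 91.5-fold lower, limma adjusted p = 1.41e-06), and with a pseudocount of 10 it was -5.07. Pcdh20 stood at 96.2, 78.3 and 62.6 in wt/wt and at 1.26, 1.85 and 0 in mut/mut (-5.41 ± 0.49, limma adjusted p = 5.73e-06), or -3.00 with a pseudocount of 10. For both genes the mut/mut values amount to at most a few reads. Pcdh12, an endothelial protocadherin, was at 0 to 4.83 in all libraries and was not tested.

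Markers of other cell types also changed, and their counts stand beside 38.7% of all genes lower and 36.8% higher. Neuroblast and neuron markers summed to 25352 to 26521 normalised counts in wt/wt and 5378 to 6965 in the libraries labelled mut/mut, with 9 of 14 tested genes lower, 3 higher and none at 0 in all mut/mut libraries (median -2.22). Dcx, which marks migrating neuroblasts, was at 195 to 235 in wt/wt and at 0 to 2.76 in mut/mut. Of 9 tested oligodendrocyte precursor markers, 8 were lower and 1, Olig2, was higher, with sums of 54999 to 61698 and 49560 to 58210 and none at 0. Olig2 was called lower with equal totals (-0.36) and after removal of the trend (-0.85), so all 9 were lower in both settings. Olig2 also made up most of these sums (mean 40412 in wt/wt and 51562 in mut/mut), so they say little about the other markers. Pdgfra, the defining receptor of those precursors, was at 1913 to 2067 in wt/wt and 43.1 to 66.6 in mut/mut. Of 10 tested microglia and macrophage markers, 9 were lower, with sums of 624 to 1828 and 34.9 to 85.0, and Cx3cr1, Aif1, Ptprc and Itgam were at 0 in all mut/mut libraries. Myelinating oligodendrocyte markers were lower in 3 of 6 (sums 6800 to 17759 and 6703 to 9417), and NSC markers in 5 of 10, with 2 higher (8 lower and 1 higher with equal totals). Astrocyte markers were lower in 4 of 7 and higher in 2, Aldh1l1 (1.57) and Aldoc (0.90). Their sums were larger in mut/mut (70509 to 106720, against 31881 to 50746), mostly from Aldh1l1 (mean 20356 in wt/wt and 60915 in mut/mut). The rise of Aldoc was not called with equal totals (0.19) or with the trend removed (0.14). Ependymal markers were higher in 3 of 5 (sums 749.8 to 1125 and 5982 to 8614, mostly from Foxj1). Of these 5, 1 was higher with equal totals, while removal of the trend left 1 higher and 1 lower. Endothelial markers (1 of 3 tested lower and 1 higher, sums 472 to 949 and 124 to 232) and pericyte and fibroblast markers (1 of 6 lower and 2 higher, sums 7174 to 10528 and 6865 to 9920) were split. The near-equal pericyte and fibroblast sums hold large opposite changes. Cspg4, also listed for oligodendrocyte precursors, was lower (-2.58), while Acta2 (5.87) and Tagln (5.48) were higher. The part of these cell types in the protocadherin values was not tested.

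Promoter sequence was available from RefSeq for 9 of the 12 non-clustered genes, as 300 bases that run from 250 before to 50 after the start of the gene in RefSeq. That start is within 114 bases of the GENCODE start for the other 8 genes, but for Pcdh15 it lies 722.5 kb inside the gene as GENCODE annotates it, so the Pcdh15 window is not at the GENCODE start. The windows of 4 genes are shown because they span the range of responses in the values as deposited. They are the most abundant non-clustered member in wt/wt (Pcdh10), the largest fall of the delta-2 group (Pcdh17), the largest fall of all (Pcdh15) and a rise (Pcdh18). They lie at chr3:45378148-45378447 (plus strand), chr14:84443313-84443612 (plus), chr10:73821617-73821916 (plus) and chr3:49757267-49757566 (minus) of GRCm38.p6. Each is printed 5′ to 3′ on the strand of its gene, with capitals for the CCAAT box (letters CCAAT) and the TATA box (letters TATAAA), read on either strand:
Pcdh10: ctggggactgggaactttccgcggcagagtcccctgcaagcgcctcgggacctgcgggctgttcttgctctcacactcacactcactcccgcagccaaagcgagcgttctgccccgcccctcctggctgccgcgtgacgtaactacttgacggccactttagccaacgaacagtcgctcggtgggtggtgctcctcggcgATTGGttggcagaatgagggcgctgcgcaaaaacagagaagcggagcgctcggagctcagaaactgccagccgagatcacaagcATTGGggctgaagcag
Pcdh17: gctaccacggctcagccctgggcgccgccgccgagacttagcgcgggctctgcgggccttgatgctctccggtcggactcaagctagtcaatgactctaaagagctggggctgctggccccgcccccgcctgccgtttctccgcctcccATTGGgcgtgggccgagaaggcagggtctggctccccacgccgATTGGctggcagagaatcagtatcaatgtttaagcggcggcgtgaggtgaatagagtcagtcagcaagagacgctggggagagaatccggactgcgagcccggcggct
Pcdh15: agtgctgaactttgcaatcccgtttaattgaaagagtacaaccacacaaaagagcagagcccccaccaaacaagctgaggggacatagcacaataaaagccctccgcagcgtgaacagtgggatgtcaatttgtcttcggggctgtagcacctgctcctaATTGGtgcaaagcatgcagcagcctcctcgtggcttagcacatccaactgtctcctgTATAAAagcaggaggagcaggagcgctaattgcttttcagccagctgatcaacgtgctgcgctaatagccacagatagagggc
Pcdh18: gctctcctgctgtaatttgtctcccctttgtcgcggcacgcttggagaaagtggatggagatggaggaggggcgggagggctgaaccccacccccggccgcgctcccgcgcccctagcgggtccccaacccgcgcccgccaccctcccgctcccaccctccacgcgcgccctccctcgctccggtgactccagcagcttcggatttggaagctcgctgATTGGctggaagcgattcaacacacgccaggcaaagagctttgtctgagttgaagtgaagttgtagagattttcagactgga

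4 motifs were searched on both strands, namely the CCAAT box, the TATA box, the GC box (letters GGGCGG) and the E-box (letters CACGTG). None of the 4 contains another. The CCAAT box stood in the windows of 8 of 9 genes, all but Pcdh7, beside 37.4% of the 32851 promoter windows of the same length in the table. The TATA box stood in 2 of 9 (Pcdh15 and Pcdh8) beside 13.6%, the GC box in 4 of 9 (Pcdh10, Pcdh17, Pcdh18 and Pcdh19) beside 35.7%, and the E-box in 0 of 9 beside 7.2%. The pair CG occurred 24 times in the Pcdh10 window, 26 times in that of Pcdh17, 23 times in that of Pcdh18 and 8 times in that of Pcdh15, with a median of 7 over all windows. Pcdh17, which fell, and Pcdh18 hold the same 2 of the 4 motifs. The rise of Pcdh18 was called as deposited and with a GC and length trend removed (1.78), but not with equal totals (-0.07). These are matches of letters and not sites.

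Fold changes of protocadherins varied with the GC content of their transcripts, as did those of all genes. GC content was 46.5% to 49.8% in alpha, 39.1% to 49.0% in beta and 51.004% to 55.4% in gamma transcripts, and ran from 36.3% (Pcdh11x) to 60.7% (Pcdh1) in the non-clustered genes. Across 62 tested protocadherins with an annotated transcript, the Spearman correlation of fold change with GC content was 0.751, against 0.594 across 13239 genes. These points share the same 6 libraries and are given as a description. Within a cluster the relation was weaker, at 0.342 over 21 beta genes, 0.195 over 22 gamma genes and -0.19 over 8 alpha genes. Over the 11 non-clustered genes it was 0.691. Fold change in clustered genes also varied with mean level (0.781 over 51 genes). The median of all tested genes was -1.08 at a GC content above 44% and up to 46%, -0.65 above 46% and up to 48%, and 0.58 above 52% and up to 54%. The medians of alpha (-1.46), beta (-1.28) and gamma (0.08) genes can be read against these intervals, in which the median GC content of each cluster lies (47.3%, 45.97% and 53.04%).

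**Figure D4:**
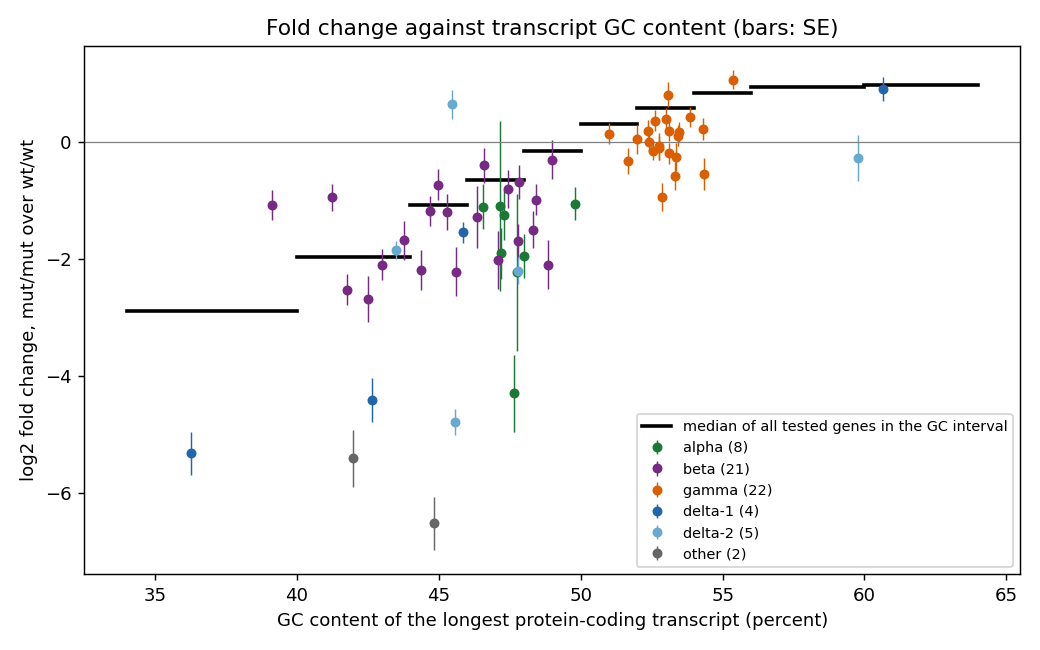
Log2 fold change of 62 tested protocadherins (mut/mut over wt/wt) with its standard error, against the GC content of the longest protein-coding transcript. Black bars are medians of all tested genes in each GC interval, which run from -2.88 at up to 40% to 0.98 above 60%. Beta and gamma genes form separate ranges of GC content, and Pcdh15, Pcdh20 and Pcdh17 lie far below the bar of their interval while Pcdh18 lies above it.

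Both settings that change the baseline moved the gamma calls and some of the others. With column totals set equal, 20.6% of all genes were higher and 54.5% lower (median -0.77). Then 45 of 52 clustered genes were lower and 1, Pcdhgc3, was higher (0.35, limma adjusted p = 0.0155), and 17 of 22 gamma genes were lower at a median of -0.64. All 21 beta genes were lower, no non-clustered gene was higher, and Pcdh1 (0.20, limma adjusted p = 0.317) and Pcdh18 (-0.07, limma adjusted p = 0.847) lost their calls.

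With a trend on GC content and length removed, 28.2% of genes were higher and 40.2% lower (median -0.19). The alpha, beta and non-clustered medians became smaller in size, whereas 6 of 22 gamma genes were lower in place of 2. Of the clustered genes 18 of 51 were lower and 5 higher, with 9 of 21 beta genes lower and 3 higher. Of the 11 non-clustered genes 6 were lower and 2 were higher, Pcdh18 (1.78) and Pcdh1 (0.52). Pcdh10 and Pcdh7 lost their falls (0.22, limma adjusted p = 0.269, and 0.07, limma adjusted p = 0.703). Pcdhb14 (1.97), Pcdhb19 (1.46) and Pcdhb22 (0.79) turned from lower to higher, with annotated transcripts of 8695, 7138 and 6609 bases. Alpha genes were at a median of -0.89, beta at -0.63 and gamma at -0.19. Pcdh15 (-4.64), Pcdh20 (-3.50), Pcdh17 (-2.87), Pcdh9 (-2.40), Pcdh11x (-1.65) and Pcdh19 (-0.86) were still called lower, and Pcdhgc3 was still called higher (0.61, limma adjusted p = 5.54e-04). In all, 21 of the 40 called members kept their call under each of these scalings. They were 20 falls (3 alpha, 9 beta, 2 gamma and 6 non-clustered) and the rise of Pcdhgc3. The 3 alpha falls include Pcdha2, which was at 0 in all mut/mut libraries. Pcdha10, also among the 40, had no annotated transcript and was not fitted with the trend removed, so it could not be counted as keeping its call.

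**Figure D5:**
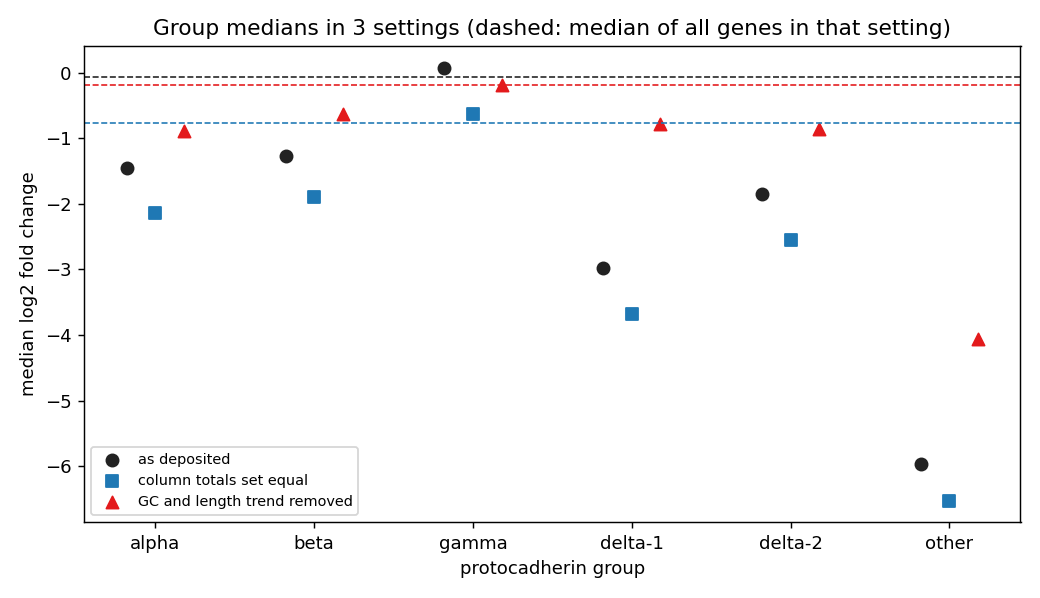
Median log2 fold change (mut/mut over wt/wt) of the tested members of each protocadherin group in 3 settings: values as deposited, column totals set equal, and a GC and length trend removed. Dashed lines are the medians of all genes tested in the same setting. The gamma median stays near that of all genes (0.08, -0.64 and -0.19, beside -0.07, -0.77 and -0.19), and the other group medians lie below it in each setting.

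Genes that work with protocadherins were counted by lists. The 21 chromatin regulators of the clusters include CTCF, cohesin and DNA methylation enzymes that set promoter choice. Of these, 16 were lower and 1 was higher (median -2.68), beside 38.7% and 36.8% of all genes. After removal of a trend on GC content and length, 13 were lower (median -1.16), beside 40.2% of all genes. Nipbl, which loads cohesin, stood at 2328, 2536 and 2406 normalised counts in wt/wt and 75.3, 60.4 and 98.1 in mut/mut (-4.97 ± 0.21, limma adjusted p = 1.79e-07). Stag2, a cohesin subunit (-4.42), and Tet2, which oxidises methylated cytosine (-4.43), fell likewise. Trim28, a corepressor, rose (2.16 ± 0.19, limma adjusted p = 4.5e-06), and Dnmt1, the maintenance methyltransferase, was not called (-0.02).

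Of the 10 genes of the WAVE regulatory complex, which links Pcdh10, Pcdh17 and Pcdh19 to actin, 5 were lower and 2 higher (median -0.85), beside 38.7% and 36.8% of all genes. Nckap1 (-2.65), Abi2 (-2.35) and Wasf3 (-2.02) fell, the subunit Brk1 rose (1.19, but 0.19 and not called with the GC and length trend removed, limma adjusted p = 0.118), and Cyfip1 was not called (-0.49). Of 19 kinases, proteases and other proteins that act on protocadherin tails, 8 were higher and 7 lower (median 0.19), shares near those of all genes. The balance turned to 6 higher and 10 lower with equal totals (median -0.52) and to 5 and 7 with the trend removed (median -0.28). Adam10, the sheddase that cleaves gamma protocadherins, fell from 5361, 4575 and 4464 normalised counts to 936, 685 and 429 (-2.88 ± 0.26, limma adjusted p = 5.2e-06). Prkca (-2.23) and Fyn (-1.20) fell and the phosphatase Ppp1ca rose (2.38).

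The wider cadherin family was mixed, and its counts stand beside 38.7% of all genes lower and 36.8% higher. Of 12 tested classical and type II cadherins, 7 were lower and 4 higher (median -0.72). Cdh1, Cdh3, Cdh7 and Cdh12 were at 0 in all mut/mut libraries and at no more than 1.72 normalised counts in any wt/wt library, so no difference can be read from them. Cdh19 (-4.24) and Cdh11 (-2.41) fell, while Cdh26 (5.69), Cdh22 (0.68) and Cdh4 (0.34) rose, of which Cdh4 was called lower with equal totals (-0.38) and Cdh22 was at -0.03 there. Of 14 atypical large cadherins, 8 were lower and 3 higher (median -0.88), with Ret (-3.81), Fat3 (-3.42), Clstn3 (-2.86) and Fat1 (-1.11) falling, of which Fat1 was not called with the trend removed (-0.11), and Clstn1 not called (0.31). Of 6 catenins, which tether classical cadherins to actin, 3 were lower and 1 higher (median -0.49), with Ctnna2 (-1.54), Ctnnd2 (-1.06) and Ctnnb1 (-0.70) falling, Jup rising (1.14) and Ctnna1 not called. The rise of Jup was not called with equal totals (0.43) or with the trend removed (0.14). Of 4 tested partners of Pcdh15 in hair cells (median 0.02), Cdh23 fell from 24.3, 42.5 and 38.7 to 7.45, 10.3 and 12.3 normalised counts (-1.70 ± 0.38, limma adjusted p = 0.00216), while Myo7a (0.28) and Cib2 (0.43) were not called and Tmc1, Tmc2 and Lhfpl5 were at 0 or at most 1.59 in every library of either genotype.

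The pattern over the 63 tested members was close within a genotype. Pearson correlations of log2 values between libraries were 0.93 to 0.96 within wt/wt and 0.97 to 0.98 within mut/mut, and 0.80 to 0.88 between them, over 63 genes that are not independent replicates. Of the 40 called members, 31 were called in each of the 6 fits that left out a library, and 9 lost the call in at least 1 of them: Pcdh18, Pcdha10, Pcdha11, Pcdhac1, Pcdhb8, Pcdhb13, Pcdhb22, Pcdhgb1 and Pcdhgb6. The p-values measure the spread between these cultures, which may be partly technical.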

How the data were processed

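Poly(A) RNA from 6 NSC cultures, 3 per genotype, was sequenced by the study. The authors deposited 1 table of normalised signal, that is, counts of each gene after DESeq2 normalisation of reads aligned to mm10 by STAR, per the submitters' processing notes. How reads were counted, with which annotation and on which strand, is not given in the sources used here. Reads of genes that overlap on either strand may therefore be shared. Whole reads could not be recovered from the values (27.7% to 57.6% of low values lay within 0.1 of a whole multiple of the most frequent one, in units of it), so no count test was run, and the worth of 1 read is an estimate. 4 rows repeated a gene name. The column used for the second wt/wt culture lacks 1 digit of the description given for it.

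Values were used as deposited, as log2(value + 1). The 13964 genes whose mean reached 10 were fitted with limma 3.58.1 in R 4.3.3 (trend and robust settings, two-sided, Benjamini-Hochberg adjustment over all genes, calls at an adjusted p under 0.05), and the fit was tested on simulated data. Fold changes are those of mut/mut over wt/wt and are understated for low genes. Transcript GC content, length and positions came from GENCODE M21 and were found for 69 of 70 members by name and for 94.8% of tested genes. Alternatives were equal column totals, pseudocounts of 0.5 and 10, a minimum mean of 100, no minimum, a GC and length trend removed, a replicate block, limma without trend and robust settings, and leaving out each library.

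The members and the 7 companion and 9 marker lists were chosen with earlier results of these data known. Genes named were, in each protocadherin group, the 3 of highest mean, the largest rise and fall and the C-type genes, and in each companion list the 3 smallest adjusted p-values and 2 most abundant. Marker genes, untested members, members whose calls changed with a setting, Pcdhb18 and the further beta and gamma genes that mark the ends of a range were added after their values were seen.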

Additional observations from a re-analysis of the deposited data

How the results depend on the processing

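Clustered protocadherins numbered 27 lower and 3 higher as deposited, 45 and 1 with column totals set equal, 8 lower with a minimum mean of 100, where 28 were tested, and 5 higher once the GC and length trend was removed, also with the replicate block. Their median of -0.87 moved to -1.47 with equal totals, -0.68 with a pseudocount of 10, -0.088 with a minimum mean of 100 and -0.41 with the trend removed. The share of clustered genes lower was 28.6% with a minimum mean of 100, beside 36.6% of all genes. With the trend removed it was 35.3%, beside 40.2%. Non-clustered genes numbered 2 higher as deposited and 0 with equal totals, and their median of -2.20 moved to -2.91 and, with the trend removed, -1.03. Of the members named by rule, those that reversed were Pcdh18 (-0.066), Pcdhgb6 (-0.29) and Pcdhgc4 (-0.49) with equal totals, and Pcdh10 (0.22), Pcdh7 (0.075), Pcdhb19 (1.46) and Pcdhgc4 (-0.091) with the trend removed, both with and without the block. Over all tested members the sign changed for 11 of 63 with equal totals, of which 2 had been called, and for 12 of 62 with the trend removed, of which 5 had been called, Pcdhb14 (1.97) and Pcdhb22 (0.79) among them. The cause was not tested.

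Leaving out each library gave 1 to 2 non-clustered genes higher and 8 lower, and 21 to 27 clustered genes lower. Same-numbered libraries deviated together at correlations of 0.11, -0.0037 and 0.07, and differently numbered ones at -0.095 to 0.050. With 3 libraries per group this cannot tell whether the numbers mark paired cultures. With the replicate block 28 clustered genes were lower, Pcdha7 and Pcdhgc5 were gained and Pcdhb8 was lost. Depth limits the numbered alpha genes, where 1 read is worth up to 2.36 normalised counts.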
